A study of Mus musculus with 12 samples.

Results

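Kidney transcripts of 5 genes on mouse chromosome 14, Tnfrsf10b, Rhobtb2, Phyhip, Cysltr2 and Sucla2, stood at different levels in wild-type mice from those in both other genotypes of a methylmalonic acidemia model. Tnfrsf10b was lower in wild-type mice and the other 4 were higher. The 5 were chosen because their signal had already been seen to differ from wild type in both Mut-/- and Mut+/- mice, so those differences are a description here and are not tested. They are 5 of 699 measured genes on chromosome 14 and of 19934 measured in all. Each was represented by 1 probe set, the only one with that single gene symbol.

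Whole kidneys of 12 female mice of C57BL/6 background, 1 array per mouse, were profiled after 2 months on a high-protein diet, which all groups received. The 4 mutants were Mut-/- and carried the transgene TgINS-Alb-Mut, the 4 heterozygotes were Mut+/- and the 4 controls were wild type, Mut+/+. The labels used here name the transgene in mutants only, so its effects and those of the missing enzyme cannot be told apart in that group. The name holds Alb, the symbol of albumin, whose promoter is active in hepatocytes, but the labels do not spell out the construct. Ages and litters of the mice were not analysed here. Signals are on a log2 scale, where a difference of 1 is a doubling, and 4 arrays per group bound the precision of every mean.

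Mut, now called Mmut, encodes the mitochondrial enzyme that turns methylmalonyl-CoA into succinyl-CoA, and its loss causes methylmalonic acidemia with chronic kidney disease. Mmut lies on chromosome 17, not on the chromosome of the 5 genes. Genes that lie near each other on a chromosome are inherited together, so mice that differ at a targeted gene can also differ in the stretch of chromosome around it or in any other stretch that separates their families. The question asked here was whether the 5 genes were placed by genotype as Mmut was, in steps with the number of intact alleles, and whether the genes lying between them differed too.

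Sucla2 is the member closest to Mut in metabolism. It encodes the ADP-forming beta subunit of succinyl-CoA ligase, the citric acid cycle enzyme that consumes succinyl-CoA, and its loss in people causes mitochondrial DNA depletion with a mild rise of methylmalonic acid. Tnfrsf10b encodes the mouse death receptor for the ligand TRAIL and is a target of p53. Rhobtb2 encodes a protein that binds cullin 3, the scaffold of a ubiquitin ligase. Phyhip encodes a protein that binds phytanoyl-CoA hydroxylase, the peroxisomal enzyme that starts the breakdown of phytanic acid. Cysltr2 encodes a receptor for cysteinyl leukotrienes, lipid mediators of inflammation that also act on endothelium.

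By the order of gene starts in the RefSeq gene table of assembly GRCm38.p6, Tnfrsf10b and Rhobtb2 are direct neighbours with 0 annotated genes between them. Rhobtb2 and Phyhip have 12 measured genes between them, Phyhip and Cysltr2 have 14, and Cysltr2 and Sucla2 have 6. The stretch from Tnfrsf10b to Sucla2 thus holds 32 measured genes that are not members. No source used here names the build behind the probe sets, so only the order of genes was taken from this table.

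Cysltr2 and Sucla2 lie 6 measured genes apart and were lower in both genotypes than in wild type, as were Rhobtb2 and Phyhip. Promoter sequence was at hand for 2 members only, Cysltr2 and Sucla2, and both sequences are shown for that reason. They are the 250 bases before the gene start in RefSeq, 5′ to 3′, on GRCm38.p6: chr14:73049115-73049364 on the minus strand for Cysltr2 and chr14:73552536-73552785 on the plus strand for Sucla2. Capitals mark matches, on either strand, to any of 6 motifs: the GC box GGGCGG, the CCAAT box with those letters, the TATA box TATAAA, the E-box CACGTG, the cyclic AMP response element TGACGTCA and the nuclear receptor half-site AGGTCA. None of these contains another.
Cysltr2: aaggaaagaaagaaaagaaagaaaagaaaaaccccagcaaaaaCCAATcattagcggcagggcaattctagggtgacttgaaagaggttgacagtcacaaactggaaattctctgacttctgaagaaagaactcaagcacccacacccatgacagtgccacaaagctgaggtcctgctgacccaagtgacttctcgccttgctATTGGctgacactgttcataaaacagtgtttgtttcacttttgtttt
Sucla2: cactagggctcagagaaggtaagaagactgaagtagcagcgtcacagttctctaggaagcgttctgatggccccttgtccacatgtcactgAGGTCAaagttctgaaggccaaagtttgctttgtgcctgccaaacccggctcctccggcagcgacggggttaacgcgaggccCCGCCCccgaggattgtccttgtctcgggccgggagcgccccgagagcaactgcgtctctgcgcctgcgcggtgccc
The 2 windows share none of these motifs. That of Cysltr2 held CCAAT at 2 places, 1 on each strand, a motif present in 33.8% of the 32851 promoter windows of the same length. That of Sucla2 held GGGCGG once, on the opposite strand, and AGGTCA once, motifs present in 32.7% and 14% of windows. The Sucla2 window was 61.2% G and C with 18 CpG pairs and the Cysltr2 window 42.8% with 2, against medians of 52.4% and 6 over all windows. These matches are letters in a window and not evidence of a factor bound there.

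Mmut gives the scale of the genotype steps. Its signal was 10.47, 10.50, 10.56 and 10.60 in the wild-type arrays, 9.93, 9.90, 9.87 and 9.97 in heterozygotes and 8.47, 8.33, 8.20 and 8.42 in mutants, replicates 1 to 4 in each case. The 3 genotypes were apart from each other. Whether these probes also read the transgene was not determined. The log2 difference was -0.62 (SE 0.06) for heterozygotes minus wild type and -1.56 (SE 0.06) for mutants minus heterozygotes.

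Sucla2, the succinyl-CoA ligase subunit gene, had a signal of 10.80, 10.85, 10.92 and 10.98 in wild-type mice, 10.55, 10.61, 10.46 and 10.61 in heterozygotes and 10.37, 10.37, 10.43 and 10.48 in mutants. All 8 arrays of the other genotypes lay below all wild-type arrays, and only heterozygote replicate 3 fell within the range of the mutants. The difference from wild type was -0.33 (SE 0.06, 1.26-fold lower) in heterozygotes and -0.48 (SE 0.06, 1.39-fold lower) in mutants.

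Phyhip, the gene of the phytanoyl-CoA hydroxylase binding protein, had 7.83, 7.91, 7.81 and 7.78 in wild-type mice, 7.61, 7.51, 7.40 and 7.52 in heterozygotes and 7.19, 7.09, 7.11 and 7.25 in mutants. It was the only member whose arrays separated all 3 genotypes, in the order wild type, heterozygote, mutant. The log2 difference from wild type was -0.32 (SE 0.06, 1.25-fold lower) in heterozygotes and -0.67 (SE 0.06, 1.6-fold lower) in mutants.

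Rhobtb2, the gene of the cullin 3 binding protein, had 8.14, 8.33, 8.16 and 8.36 in wild-type mice, 7.67, 7.87, 7.68 and 7.88 in heterozygotes and 7.83, 7.72, 7.71 and 7.70 in mutants. The mutants lay within the range of the heterozygotes, and both below every wild-type array. The differences from wild type were -0.47 (SE 0.07, 1.39-fold lower) and -0.51 (SE 0.07, 1.42-fold lower).

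Tnfrsf10b, its direct neighbour, differed in the other direction. The signal of this death receptor gene was 7.11, 7.09, 7.20 and 7.11 in wild-type mice, 7.44, 7.37, 7.49 and 7.45 in heterozygotes and 7.38, 7.57, 7.39 and 7.40 in mutants. Every array of both genotypes lay above wild type, by 0.31 (SE 0.05, 1.24-fold) in heterozygotes and 0.30 (SE 0.05, 1.23-fold) in mutants on average. Mutant replicate 2 was the highest array.

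Cysltr2, the leukotriene receptor gene, had 5.53, 5.62, 5.43 and 5.47 in wild-type mice, 5.06, 5.19, 5.0 and 4.98 in heterozygotes and 4.92, 4.99, 4.96 and 5.26 in mutants. Its differences were -0.45 (SE 0.08, 1.37-fold lower) and -0.48 (SE 0.08, 1.39-fold lower), again with both groups below every wild-type array. This is a dim probe set: 11.5% of genes had a lower mean signal, and the normalisation compresses differences near background. Of the 5 members the other 4 had a group mean of at least 6, the filter on low values used as an alternative.

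**Figure D1:**
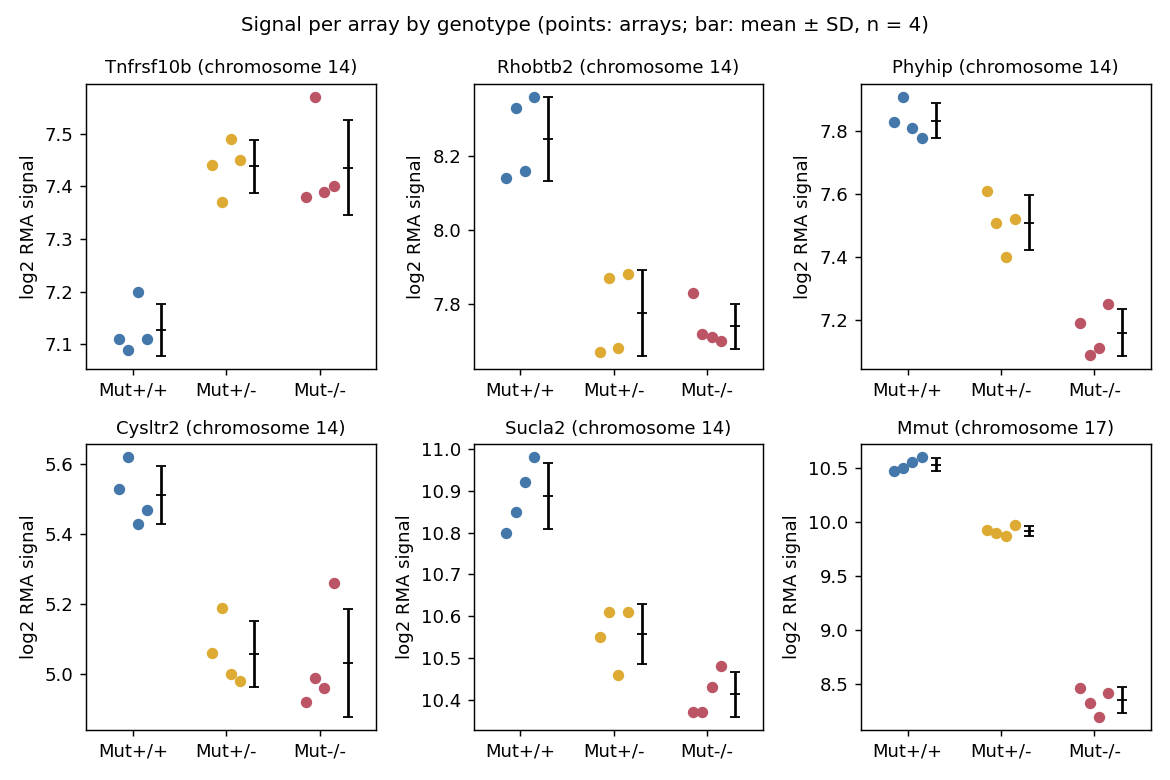
Log2 signal of the 5 chromosome 14 genes and of Mmut by genotype, each point 1 array and each black bar the mean with its SD over 4 arrays; the signal axes differ between panels and do not start at 0. In all 5 genes the wild-type arrays stood apart from the others, and only for Phyhip and Mmut were heterozygotes also apart from mutants. The 5 were chosen for differing from wild type. The share of all genes apart in this way was not counted. Separation from wild type in both genotypes was also seen in genes around the members, such as Chmp7, Ppp3cc and Rb1.

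For 3 members heterozygotes and mutants were at nearly the same level. Mutants minus heterozygotes was 0.00 for Tnfrsf10b (95% interval -0.12 to 0.11), -0.03 for Rhobtb2 (-0.18 to 0.11) and -0.03 for Cysltr2 (-0.19 to 0.14). These intervals leave room for differences of the size of their bounds. For Phyhip mutants were lower than heterozygotes by a log2 difference of -0.35 (95% interval -0.47 to -0.23), and for Sucla2 by -0.14 (-0.26 to -0.03). For Mmut it was -1.56 (-1.69 to -1.43). The choice of the members rested on the same arrays, so these are intervals from the limma fit, unadjusted, and not tests. In that comparison limma called 2.54% of all genes at an adjusted p under 0.05, the threshold for a call throughout.

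A second way to place the heterozygotes is against the midpoint between mutants and wild type. They lay at the midpoint for Phyhip, with a deviation of 0.01 (95% interval -0.09 to 0.12). Heterozygotes lay beyond it, on the side of the mutants, for Rhobtb2 (-0.22, -0.35 to -0.09), Cysltr2 (-0.21, -0.36 to -0.07) and Tnfrsf10b (0.16, 0.06 to 0.26). The value for Sucla2 was -0.09, with an interval from -0.20 to 0.01. Mmut was on the other side: heterozygotes were 0.47 above the midpoint (0.36 to 0.58) and so nearer to wild type on the log2 scale. The midpoint of log2 values lies below that of the signals before the log, the more so the larger the difference. Equal steps per allele before the log would thus place heterozygotes above the log2 midpoint, and the placement was not repeated on that scale. As a share of the mutant difference from wild type, the heterozygote difference was 101% for Tnfrsf10b, 94.7% for Cysltr2, 93.2% for Rhobtb2, 69.7% for Sucla2, 48.1% for Phyhip and 28.3% for Mmut. The members were chosen for a heterozygote difference, which favours genes with a large share, so these shares and the deviations from the midpoint are a description and their rank against Mmut is not a result.

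**Figure D2:**
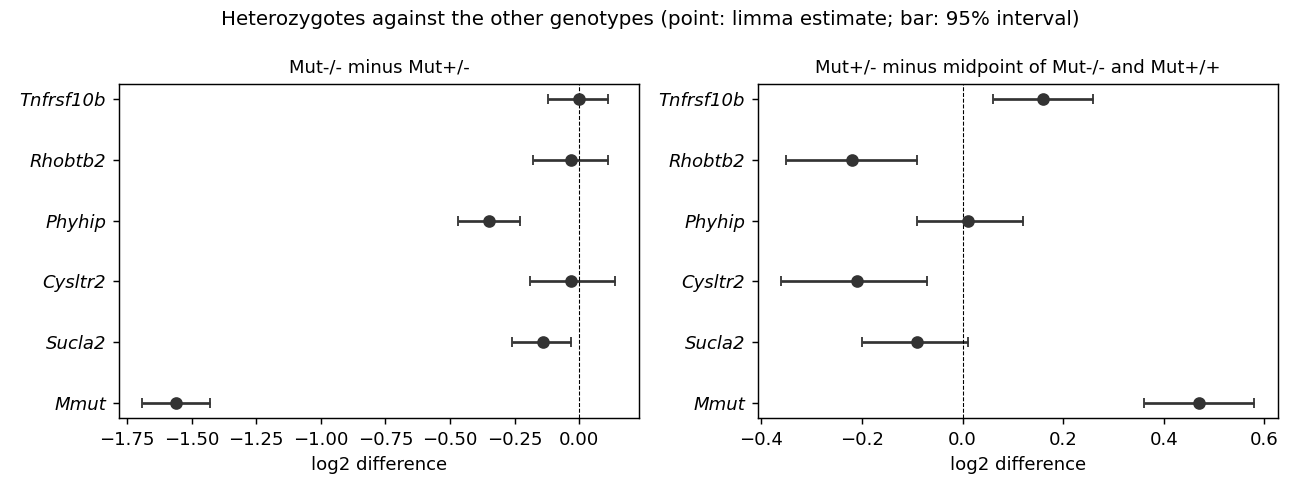
Mutants minus heterozygotes (left) and heterozygotes minus the midpoint of mutants and wild type (right), in log2 units, for the 5 genes and Mmut; points are limma estimates from 12 arrays and bars 95% intervals. Phyhip lies at the midpoint (0.01), Tnfrsf10b, Rhobtb2 and Cysltr2 lie on the mutant side of it, and Mmut lies 0.47 above it.

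The genes around the members were looked at in the same comparisons. In heterozygotes against wild type limma called 0.135% of all genes (27 of 19934), 0.0652% higher and 0.0702% lower, and those on chromosome 14 were the 5 members alone, as they were chosen to be. The number of members past the threshold in both comparisons with wild type fell from 5 to 0 with the replicate number as a block, and also without heterozygote replicate 1 or 3 or wild-type replicate 2, 3 or 4. The count of 27 ran from 5 without wild-type replicate 4 to 67 without wild-type replicate 1. Of the other 694 measured genes of the chromosome 0 were called, with 89 (12.8%) at an unadjusted p under 0.05, against 11.3% of all genes. Of the 32 genes between Tnfrsf10b and Sucla2, 0 were called by limma in heterozygotes and 6 (18.8%) had an unadjusted p under 0.05. Their log2 differences ran from -0.23 to 0.19, with a median of 0.01, which is also the median of all genes.

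In mutants against wild type limma called 9.66% of all genes, 2.96% higher and 6.69% lower, and 4 of those 32 (12.5%), each of them lower in mutants. These were Rb1, the retinoblastoma tumour suppressor gene (log2 difference -0.35, adjusted p = 0.00465), Ppp3cc, which encodes a catalytic subunit of calcineurin (-0.27, adjusted p = 0.00657), Fndc3a (-0.27, adjusted p = 0.0217) and Reep4 (-0.25, adjusted p = 0.0148). In all 4, named because they were called, the mutant arrays lay below the wild-type arrays. In heterozygotes their differences were -0.23, -0.13, -0.22 and -0.20, with adjusted p from 0.193 to 0.373. Fndc3a lost its call when mutant replicate 1 or wild-type replicate 2 or 4 was left out (adjusted p up to 0.0655).

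Direct neighbours of the members were not called in either comparison with wild type, apart from Fndc3a before Cysltr2. Chmp7, which precedes Tnfrsf10b, differed by 0.16 in mutants (adjusted p = 0.0564) and 0.11 in heterozygotes (adjusted p = 0.425). Pebp4, which follows Rhobtb2, differed by 0.09 and 0.06. Around Phyhip the microRNA gene Mir320 differed by 0.23 and 0.13 and Bmp1, which encodes a procollagen protease, by -0.02 and 0.02. Rcbtb2 after Cysltr2 differed by -0.05 in mutants (0.05 without mutant replicate 3) and -0.09 in heterozygotes. Med4, a Mediator subunit gene before Sucla2, differed by 0.08 in mutants (-0.06 with its probe sets averaged) and -0.01 in heterozygotes, and the serotonin receptor gene Htr2a after it by -0.06 and 0.07.

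Taking the 5 nearest measured genes on each side of every member gave 36 neighbours. Of these 4 were called in mutants against wild type (11.1%, against 9.66% of all genes). In heterozygotes against wild type 0 were called, against 0.135% of all genes. That 0 follows from the choice, since the members were all the called genes of the chromosome. In mutants against heterozygotes 0 were called, against 2.54% of all genes. At an unadjusted p under 0.05 there were 7 in mutants against wild type (19.4%, against 24.4% of all genes), 7 in heterozygotes against wild type (19.4%, against 11.3%) and 1 in mutants against heterozygotes (2.78%, against 15.4%). The share was thus above that of all genes in heterozygotes against wild type and below it in the other comparisons, and these differences in share were not tested. The median neighbour difference was 0.01 in both comparisons with wild type.

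**Figure D3:**
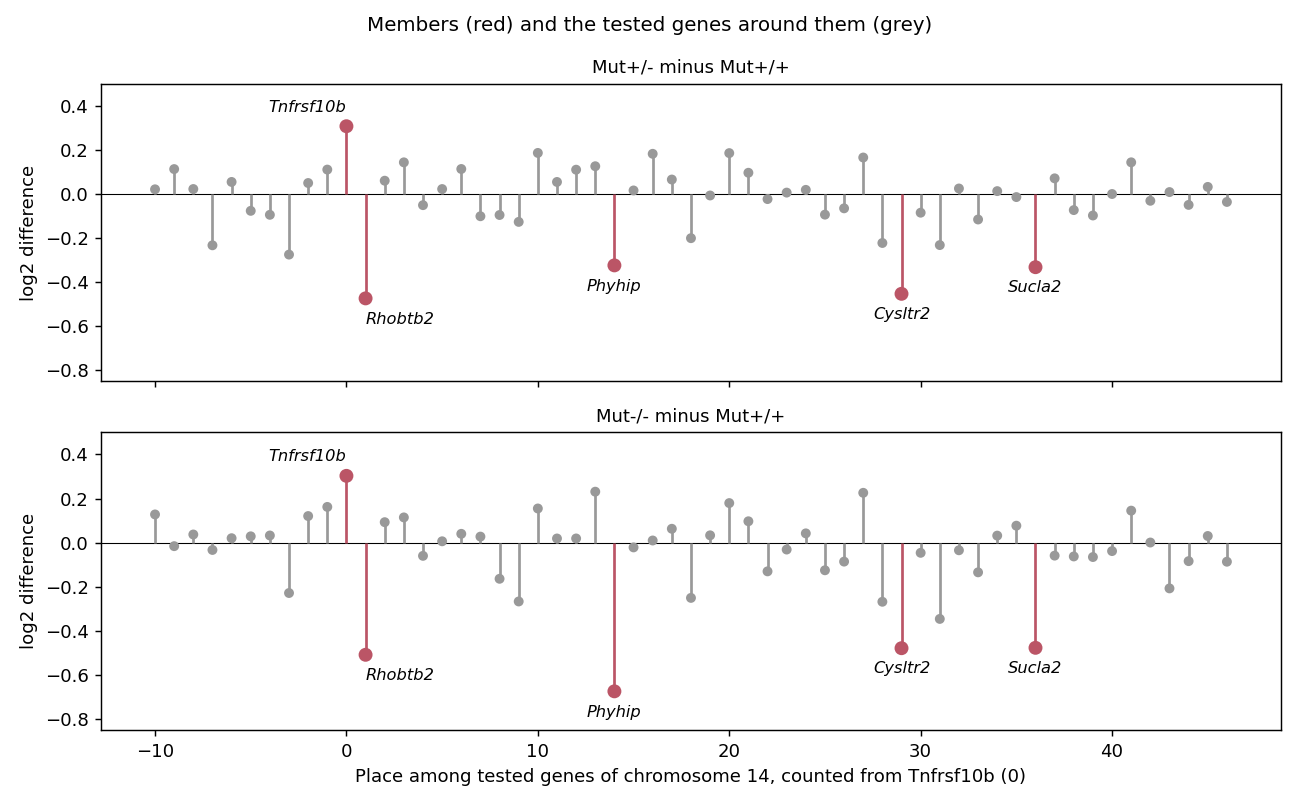
Log2 difference from wild type of the members (red) and of the measured genes around them (grey), from 10 genes before Tnfrsf10b to 10 after Sucla2, in chromosome order; the horizontal axis counts genes and not distance. In heterozygotes (top) the genes between the members run from -0.23 to 0.19; the members were chosen for their differences here. Tnfrsf10b and Rhobtb2 stand side by side with opposite signs.

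Just outside the choice, the chromosome 14 genes next in order of evidence in heterozygotes against wild type lay elsewhere on the chromosome. Trim13, a ubiquitin ligase gene placed 81 measured genes before Tnfrsf10b, differed by -0.67 in heterozygotes and -0.72 in mutants. The mitochondrial ribosomal protein gene Mrpl57, 107 measured genes before Tnfrsf10b, differed by -0.26 and -0.30, and Dock9, 144 measured genes after it, by -0.31 and -0.43. By limma none of them was called in heterozygotes (adjusted p from 0.0912 to 0.128) and each was called in mutants (adjusted p from 0.00305 to 0.00657). The largest of these differences, that of Trim13, exceeded those of the members in size, with a larger SE of 0.14 in heterozygotes.

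Genes with the most similar pattern over the 12 arrays mostly lay on other chromosomes. Likeness was measured by Pearson's correlation of log2 signals, as a description, since the 12 points form 3 genotype groups. Il21r was closest to Tnfrsf10b (0.909), followed by the kallikrein gene Klk1b22 (0.895) and Ilkap (0.864). Tmem41b (0.966), Dipk2a (0.953) and Pigk (0.941) were closest to Rhobtb2. The cytochrome P450 gene Cyp4f14 (0.969), Esrp1, a splicing regulator of epithelial cells (0.968), and Ufm1 (0.967) were closest to Phyhip. Of these, Cyp4f14 lies on chromosome 17, as Mmut does, and whether they are linked was not tested. Serpina1c and Hhip (each 0.941) and the proteasome subunit gene Psma6 (0.927) were closest to Cysltr2, and the unnamed gene 1700019D03Rik (0.964), Dynlt3 (0.963) and the acid ceramidase gene Asah1 (0.958) to Sucla2. Among the 20 genes most like each member, 0 lay on chromosome 14 for Tnfrsf10b and Sucla2, 1 for Phyhip and Cysltr2 and 2 for Rhobtb2, where chromosome 14 holds 3.51% of the genes measured. No member was among the 3 genes most like another. Only positive correlations could rank high, so Tnfrsf10b could not be listed with the other members, which differed the other way. The ranking also rests on the genotype differences for which the members were chosen.

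The pathways in which the members act were looked at through 118 measured genes in 7 lists, with the members and Mmut left out. In mutants against wild type 17 of them were called (14.4%, against 9.66% of all genes), 8 higher and 9 lower. In heterozygotes against wild type limma called 0 of 118, against 0.135% of all genes. At an unadjusted p under 0.05 there were 16 (13.6%, against 11.3% of all genes). In mutants against heterozygotes 7 were called (5.93%, against 2.54% of all genes). The 17 fell to 11 without wild-type replicate 4, and the 7 to 4 without heterozygote replicate 1 or 4. The shares given below for single lists rest on few genes, and their differences from the share of all genes were not tested.

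The list around Sucla2 held 24 measured genes of the pathway through the mutase, the citric acid cycle and other reactions of succinyl-CoA. Some of them, Mcee among the called genes, do not themselves make or use succinyl-CoA. In mutants 6 were called (25%, against 9.66% of all genes), 5 lower and 1 higher, with a list median of -0.08 against 0.00 for all genes. Oxct1, which encodes the enzyme that passes coenzyme A from succinyl-CoA to ketone bodies, fell 1.45-fold (log2 difference -0.54, SE 0.10, adjusted p = 0.00465), where mutants spanned 10.23 to 10.81 and wild-type arrays 11.11 to 11.20. Dld, the shared dehydrogenase subunit of the oxoacid dehydrogenase complexes, fell 1.2-fold (adjusted p = 0.0188), and Mcee, the epimerase just before the mutase, 1.16-fold (adjusted p = 0.0166). Dld lost its call when mutant replicate 2 or wild-type replicate 2 or 4 was left out (adjusted p up to 0.065), and Mcee when wild-type replicate 2 or 4 was (adjusted p up to 0.0525). The partners of Sucla2 in the ligase did not pass the test. Suclg1, the shared alpha subunit, differed by 0.13 (adjusted p = 0.245) and Suclg2, the GDP-forming beta subunit, by -0.08 (adjusted p = 0.499).

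Of 13 mitochondrial DNA maintenance genes 2 were called in mutants (15.4%, against 9.66% of all genes), both of them lower. Abat, which encodes GABA transaminase, was 1.35-fold lower (adjusted p = 0.000506) and Dguok, the mitochondrial deoxyguanosine kinase gene, 1.24-fold lower (adjusted p = 0.00971). In heterozygotes these differed by -0.09 and -0.11, and neither passed.

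Around Tnfrsf10b, 0 of 21 measured death receptor and caspase genes were called by limma in mutants, against 9.66% of all genes. At an unadjusted p under 0.05 there were 3 (14.3%, against 24.4% of all genes). The Tnfrsf10b ligand gene Tnfsf10 differed by -0.26 (adjusted p = 0.172) and Birc3, an inhibitor of apoptosis, by 0.28 (adjusted p = 0.0643). Of 15 p53 targets and stress transcription factors 0 were called in heterozygotes, where 0 also had an unadjusted p under 0.05. In mutants 3 were called, each of them higher (20%, against 9.66% of all genes). The growth arrest gene Gadd45a rose 1.5-fold (adjusted p = 0.00062), the glutathione-degrading enzyme gene Chac1 1.28-fold (adjusted p = 0.0143) and the stress response factor gene Atf4 1.2-fold (adjusted p = 0.0196). Their differences in heterozygotes were 0.09, 0.13 and 0.03. Leaving out wild-type replicate 2 ended the call of Chac1 (adjusted p = 0.0503), and leaving out wild-type replicate 3 or 4 that of Atf4 (adjusted p up to 0.0681).

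Around Rhobtb2, 3 of 14 genes were called in mutants (21.4%, against 9.66% of all genes). Klhl3, a cullin 3 adaptor that controls salt transport in the distal nephron, fell 1.28-fold (adjusted p = 0.0025) and the cullin exchange factor gene Cand1 1.24-fold (adjusted p = 0.0135). The relative Rhobtb1 rose 1.22-fold (log2 difference 0.29, adjusted p = 0.022) and differed by 0.28 in heterozygotes (adjusted p = 0.168), opposite in sign to Rhobtb2. Its mutant and wild-type arrays overlapped, at 8.80 to 9.13 and 8.63 to 8.81, and leaving out any 1 of 5 arrays ended its call, namely mutant replicates 1 and 3 and wild-type replicates 1, 2 and 3 (adjusted p up to 0.061). Leaving out wild-type replicate 4 ended that of Cand1 (adjusted p = 0.0503). Rhobtb3 differed by 0.12 (adjusted p = 0.239).

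The list around Phyhip held 14 measured genes, most of them of peroxisomes or phytanic acid breakdown. In mutants 2 were called (14.3%, against 9.66% of all genes), both higher and both themselves on chromosome 14. Hacl1, the lyase of phytanic acid breakdown, rose 1.59-fold (log2 difference 0.67, adjusted p = 0.0018), with -0.21 in heterozygotes (adjusted p = 0.465). Acox2, the branched-chain acyl-CoA oxidase gene, rose 1.42-fold (adjusted p = 0.0158), with -0.05 in heterozygotes. Both therefore had the opposite sign to Phyhip in mutants. Phyh itself, the binding partner, differed by 0.01 (adjusted p = 0.928; the sign turned with quantile normalization), and the relative Phyhipl by -0.24 (adjusted p = 0.112).

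Around Cysltr2, 1 of 17 leukotriene genes was called in mutants (5.88%, against 9.66% of all genes). Mgst3, a microsomal glutathione transferase gene, rose 1.36-fold (adjusted p = 0.015). The other leukotriene receptor gene, Cysltr1, differed by 0.23 (adjusted p = 0.0502), with a sign opposite to Cysltr2.

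**Figure D4:**
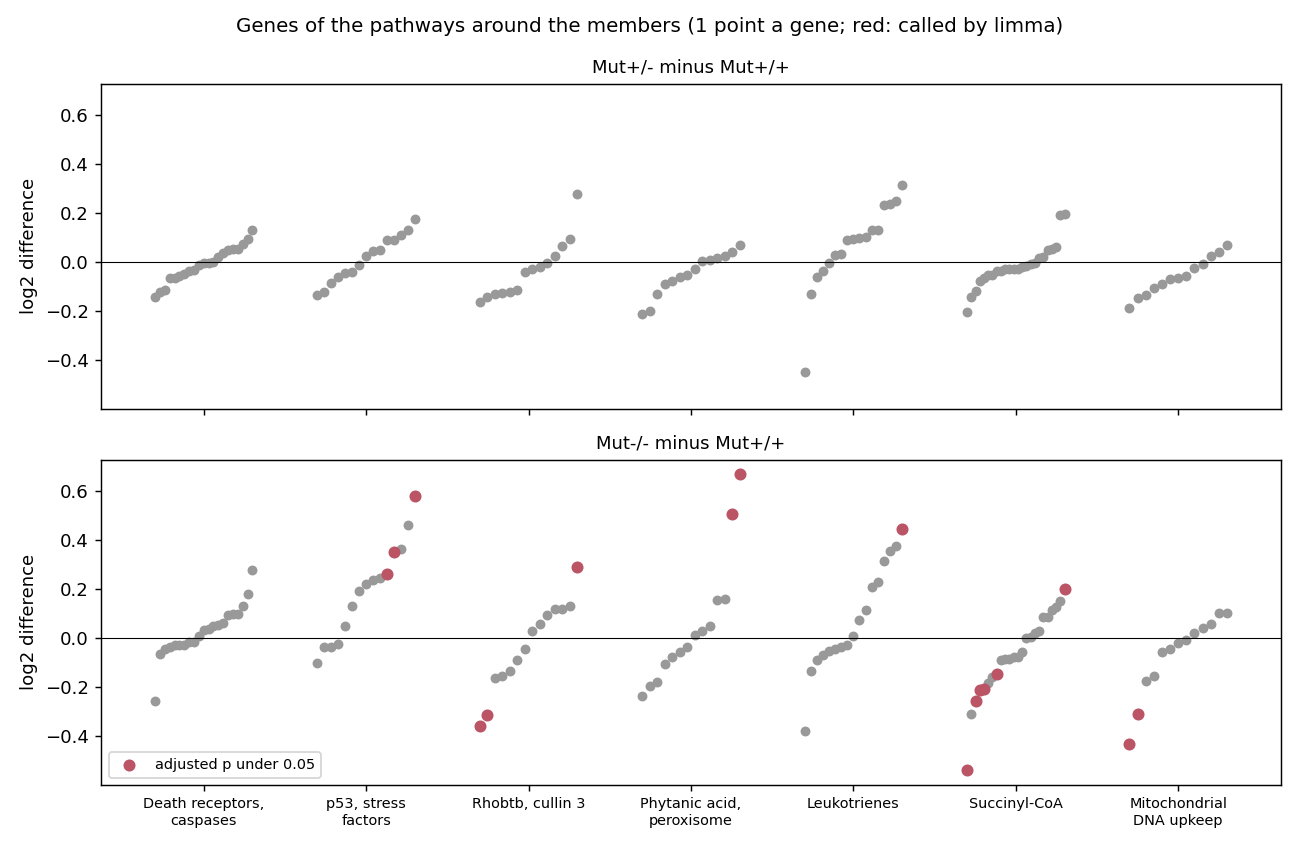
Log2 difference from wild type of the 118 pathway genes in heterozygotes (top) and mutants (bottom), 1 point per gene, grouped by list and ordered by value within each; red points passed limma at an adjusted p under 0.05. In heterozygotes 0 points are red and in mutants 17 are.

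Cell type markers were compared because whole kidney was measured and because Cysltr2 is also made by endothelium and leukocytes. In bulk tissue, fewer cells of a type and less RNA per cell cannot be told apart. Defining kidney markers were present on every array, with gene means from 8.03 for the podocyte gene Nphs1 up to 13.27. Of 9, 3 were called in mutants, each lower (33.3%, against 9.66% of all genes). In heterozygotes 0 were called and 0 had an unadjusted p under 0.05. Endothelial markers had array means of 8.86 to 9.24 in mutants, 9.27 to 9.47 in heterozygotes and 9.38 to 9.53 in wild-type mice. Of 8, 3 fell in mutants (37.5% called, against 9.66% of all genes) and 0 in heterozygotes by limma, where 0 had an unadjusted p under 0.05. Leukocyte markers had means of 7.07 to 7.54, 7.12 to 7.61 and 7.06 to 7.22. In mutants 1 of 9 was called higher and 1 lower (22.2% called, against 9.66% of all genes). In heterozygotes 0 were called and 0 had an unadjusted p under 0.05. All their heterozygote differences were above 0, from 0.01 to 0.59, with a median of 0.24 against 0.01 for all genes. Their mutant differences ran from -0.64 to 0.65, with a median of 0.07. The part of these cell types in the members' values was not tested.

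Mutant replicate 3 stood apart in genes of adrenal steroid synthesis. Its Cyp11b1 signal was 12.65, against 5.40 to 6.58 on the other 11 arrays, its Star signal 11.99 against 6.64 to 6.91, and its Cyp11a1 signal 10.61 against 5.24 to 5.66. Perirenal fat markers were not raised there, with Adipoq at 6.33 against 6.47 to 8.33. Without that array the mutant differences from wild type were 0.32 for Tnfrsf10b, -0.50 for Rhobtb2, -0.66 for Phyhip, -0.45 for Cysltr2 and -0.48 for Sucla2, each within 0.03 of the value with it. Some pathway genes moved more, such as Oxct1 from -0.54 to -0.41 and Acox2 from 0.51 to 0.63, and both kept their calls.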

How the data were processed

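RNA of 12 whole kidneys was read on Affymetrix mouse gene arrays. The values deposited by the authors are on a log2 scale, 1 per probe set and array. The submitters' processing notes name RMA and version 1.2.1 of Affymetrix Expression Console for them. Of 35552 probe sets, 21785 had 1 gene symbol in the platform annotation, and the brightest of these on average stood for each gene, giving 19934 genes. Array medians lay between 7.17 and 7.23. Chromosome and order came from RefSeq by Entrez identifier for 19852 genes. Fits used R 4.3.3 and limma 3.58.1 (lmFit, eBayes) over all 12 arrays, with Benjamini-Hochberg adjustment over all genes of a comparison, and were tested on simulated data. Calls were made below an adjusted p of 0.05.

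The members, the lists and the questions were chosen with earlier results of these data known. Named genes are the members, Mmut, the nearest measured gene on each side of a member, called genes between the outermost members, up to 4 called genes per pathway list or else the one with the smallest p, close relatives, and the 3 genes most like each member. The midpoint comparison, the promoter motifs and the genes just outside the choice were added after values were seen. The labels do not say that the mice of a group came from separate litters, and the p-values measure the spread between arrays of single mice. Probe sets with several symbols or none were left out. Alternatives are described in the closing section. Over all genes, same-numbered arrays did not deviate together: of 12 pairs, 1 correlated above 0.1. For Rhobtb2 the wild-type and heterozygote arrays did rank alike by replicate number, and the mutant arrays did not.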

Additional observations from a re-analysis of the deposited data

Results flagged for a closer look

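Among 18 groups of 4 arrays (the 5 members and Mmut in 3 genotypes), 2 held an array whose gap to the nearest of the others, as a share of the group's range, was above Dixon's 95% critical value. Chance gives about 1 in 20. In Tnfrsf10b, mutant replicate 2 was at 7.57 and the other mutants at 7.38 to 7.40, and without it the mutant difference from wild type was 0.26. In Rhobtb2, mutant replicate 1 was at 7.83 and the others at 7.70 to 7.72, and without it the difference was -0.54.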

How the results depend on the processing

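The log2 differences of the 5 members were recomputed 297 times over the 3 comparisons and all alternatives. Each moved by less than 1 SD between replicates. In the comparisons with wild type 0 were reversed. In mutants against heterozygotes reversals were not counted, and the sign of Cysltr2 turned from -0.03 to 0.02 without heterozygote replicate 2. The members' place past the threshold that led to their choice was less stable. All 5 passed an adjusted p under 0.05 in both comparisons with wild type as fitted, and also with array weights, with a trended and robust prior, with only the groups compared and with probe sets of a gene averaged. That number was 4 with the filter on low values, which drops Cysltr2, 4 with centred array medians and 3 with quantile normalization. With the replicate number as a block it was 0, and with 1 array left out it ran from 0 (without heterozygote replicate 1 or 3 or wild type replicate 2, 3 or 4) to 5 (without mutant replicate 3). The replicate block left the members' differences as they were and lowered the genes called between heterozygotes and wild type from 27 to 7. Same-numbered arrays are not known to be paired, and of 12 arrays 0 correlated best with their own number.

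The count of genes called between heterozygotes and wild type was 163 with array weights, 42 with a trended and robust prior and 78 with only the groups compared, and with 1 array left out it ran from 5 (without wild type replicate 4) to 67 (without wild type replicate 1), being 55 without mutant replicate 3 and 6 to 12 without wild type replicate 2 or 3 or heterozygote replicate 1, 2 or 4. With only the groups compared, 1154 genes were called between mutants and wild type in place of 1925, and 191 between mutants and heterozygotes in place of 506. With 1 array left out these ran from 1019 to 1928, lowest without wild type replicate 4 (1125 without wild type replicate 2), and from 229 to 592, being at most 308 without any 1 heterozygote array. The called pathway genes numbered 11, 1 and 4 with only the groups compared, in place of 17, 0 and 7, in mutants against wild type, heterozygotes against wild type and mutants against heterozygotes. Leaving out 1 array gave 11 (without wild type replicate 4) to 25, 0 throughout and 4 (without heterozygote replicate 1 or 4) to 8. The neighbours called in mutants against wild type ran from 3 to 6 without 1 array. Under every alternative run, 10 neighbours on each side included, 0 were called in heterozygotes against wild type or in mutants against heterozygotes. In heterozygotes against wild type this carries little weight, since the members were chosen as all the called genes of the chromosome. The causes of these changes were not tested. The dim signal of Cysltr2 limits how closely its difference is known.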
